A study of Mus musculus with 6 samples.

Results

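Rab GTPases are small proteins of the Ras superfamily that mark membranes and route vesicles between them. The genes described here were all those with a symbol made of Rab, a number and at most a letter and a further digit, whatever their level, and they numbered 58 of the 24457 genes on chromosomes. They were measured by RNA sequencing of thymic endothelial cells (ECs), the lining cells of the thymic blood vessels, from wild-type female C57BL/6 mice aged 4 to 6 weeks. The CD31+CD45-EpCAM- cells were sorted by Ly6C and P-selectin (Selp) into type I ECs (Ly6C+Selp-), type II ECs (Ly6C+Selp+) and type III ECs (Ly6C-Selp+), with 2 libraries per type and a stated purity of at least 90%. No treatment or engineered allele is named for any of the 3 groups. The labels do not say whether replicates came from separate animals or pools, so p-values measure only the spread between these libraries, which may be technical.

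Rab proteins work as switches. Exchange factors load them with GTP, which allows them to bind effectors such as tethers and motors, and GTPase-activating proteins end the cycle. A dissociation inhibitor and an escort protein carry the lipid-bearing, inactive form through the cytosol. In ECs, Rab27a, Rab3 proteins and Rab15 are known for their part in the release of Weibel-Palade bodies, the storage granules that hold von Willebrand factor and P-selectin. Rab GTPases in the wider endosomal and secretory system move receptors, adhesion molecules and newly made proteins to and from the cell surface.

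The values are FPKM, fragments scaled to transcript length and to the mapped fragments of the library, so levels can be set side by side between genes of different length. Summed FPKM ranged from 221458 to 300932 per library, and the fragments read back from the deposited intervals came to 1452476 to 2423171, at which 3 fragments stood for a median FPKM of 0.391 to 0.674. The sort genes followed their gates. Selp was at 7.87 and 5.20 FPKM in type I ECs, 313 and 416 in type II and 526 and 657 in type III, while Ly6c1 was at 1010 and 692, 522 and 351, and 99.6 and 59.7. All 10 endothelial markers were tested, and their summed FPKM lay between 2130 and 3040 in every library. Of these, Cldn5 (log2 difference -3.70) and Kdr (-1.49) were lower in type III than in type I by limma, and Cldn5 also lower than in type II (-2.07). The summed FPKM of 8 myeloid markers was 339 and 55.1 in type I, 132 and 50.1 in type II and 522 and 92.9 in type III, that of 10 thymocyte and T cell markers 27.2 to 103, 44.6 to 68.3 and 81.6 to 179, and that of 10 pericyte and mesenchymal markers 296 to 661, 465 to 739 and 224 to 264, with Pdgfrb lower in type III than in type I (-1.85). The sum of 8 thymic epithelial markers was 82.5 and 24.1, 56.7 and 33.2, and 83.2 and 17.2, and that of 5 lymphatic endothelial markers 24 and 18.7, 12.4 and 9.85, and 31.4 and 13.5. Of 5 erythroid markers, summed at 84.3 and 140.0 in type I, 51.4 and 26.4 in type II and 0 and 10.9 in type III, Hba-a1 fell between type I and type III by limma at both loci of that name, while 4 of 6 mast cell markers were at 0 in all libraries. Rab GTPases are expressed in all these cells, and the part of admixed cells in the values below was not tested. In bulk samples, fewer cells of a type and less RNA per cell cannot be told apart.

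Thymic ECs of all 3 types held transcripts of most Rab GTPases. The 8 highest members, mostly endosomal or early secretory, carried 53.7% of summed Rab FPKM. Rab transcripts made up 0.294% to 0.340% of the summed FPKM of a library. Of the 58 genes, 23 had a mean over the 6 libraries of 10 FPKM or more, 18 a mean of 1 to 10 and 6 a value of 0 in all 6 libraries, while the remaining 11 were detected at lower levels. A gene was tested where 2 or more libraries reached an FPKM of 1, which 41 of the 58 Rab genes (70.7%) and 47.9% of all genes met.

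**Figure D1:**
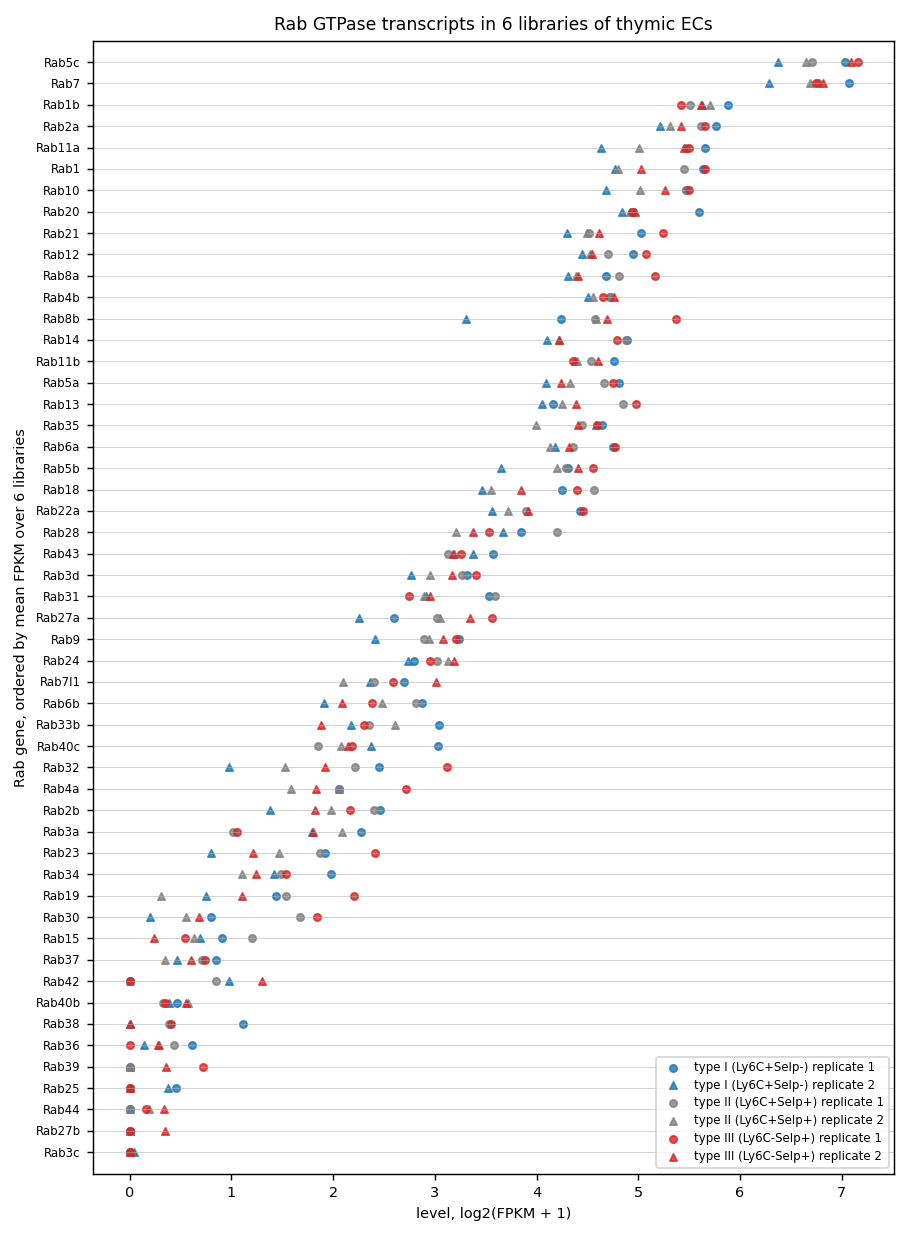
Level of each of the 52 Rab genes above 0 in at least 1 library, in log2(FPKM + 1), ordered by mean FPKM over 6 libraries. Points are single libraries, coloured by EC type, with circles for replicate 1 and triangles for replicate 2. Rab5c and Rab7 stand above all others, and the points of the 3 types intermingle for most genes.

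The highest was Rab5c, an early endosome GTPase, at 129.7 and 81.9 FPKM in type I ECs, 103 and 99.2 in type II and 142 and 135 in type III, in the order replicate 1 and replicate 2 used throughout. Rab7, which governs the passage from late endosome to lysosome, was at 134 and 77.2, 108 and 102, and 106 and 112 FPKM. These values overlapped between all 3 types for Rab7, and for Rab5c the type III libraries lay above the other 4. The next 6 were Rab1b, Rab2a and Rab1 of traffic between endoplasmic reticulum and Golgi, Rab11a of the recycling endosome, Rab10 of transport to the surface and Rab20 of the early endosome. Together with Rab5c and Rab7 these 8 genes held 53.7% of the summed Rab FPKM, as a mean over libraries. Rab17, Rab26, Rab33a, Rab39b, Rab3b and Rab9b were at 0 in every library, which says only that they stayed under about 3 fragments.

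The order of the levels was close to the same in the 3 EC types. Over the 58 genes, Spearman's rho between mean log2 levels of a pair of types was 0.973 to 0.988, and between replicates of a type it was 0.969 to 0.978. These are descriptions across genes measured in the same libraries, and genes are not independent replicates.

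The start regions of the Rab genes are shown because Rab genes above and below the filter differed in the number of CG pairs before the start. The 250 bases before the transcription start came from a set of RefSeq promoters (GRCm38.p6). The set used here held 48 of the 58 genes, 2 of them under another symbol. For the 8 genes with several starts the start with the most CG pairs was used. The promoters of Rab27a and Rab8b, whose levels differed most between type III and type I ECs, are given first, followed by that of Rab5c, the highest member, and those of Rab3b and Rab17, both at 0 in all libraries. Each is written 5′ to 3′ with its CG pairs in capitals.
Rab27a, GRCm38.p6 chr9:73044560-73044809, plus strand: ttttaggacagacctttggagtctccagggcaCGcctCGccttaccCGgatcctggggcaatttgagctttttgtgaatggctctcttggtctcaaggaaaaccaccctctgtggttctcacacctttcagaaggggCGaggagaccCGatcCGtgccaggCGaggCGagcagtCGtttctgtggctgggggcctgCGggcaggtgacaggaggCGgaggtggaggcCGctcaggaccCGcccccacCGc
Rab8b, GRCm38.p6 chr9:66919706-66919955, minus strand: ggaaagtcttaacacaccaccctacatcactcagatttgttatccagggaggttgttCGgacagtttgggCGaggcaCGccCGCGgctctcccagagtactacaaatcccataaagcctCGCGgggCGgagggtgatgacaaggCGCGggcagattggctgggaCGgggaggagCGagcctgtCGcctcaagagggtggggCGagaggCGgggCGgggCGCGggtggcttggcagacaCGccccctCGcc
Rab5c, GRCm38.p6 chr11:100738216-100738465, minus strand: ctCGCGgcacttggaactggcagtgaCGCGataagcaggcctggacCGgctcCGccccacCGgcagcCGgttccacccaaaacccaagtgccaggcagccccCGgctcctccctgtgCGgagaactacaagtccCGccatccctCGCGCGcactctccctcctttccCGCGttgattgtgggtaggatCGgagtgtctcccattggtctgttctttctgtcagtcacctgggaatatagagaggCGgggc
Rab3b, GRCm38.p6 chr4:108878820-108879069, plus strand: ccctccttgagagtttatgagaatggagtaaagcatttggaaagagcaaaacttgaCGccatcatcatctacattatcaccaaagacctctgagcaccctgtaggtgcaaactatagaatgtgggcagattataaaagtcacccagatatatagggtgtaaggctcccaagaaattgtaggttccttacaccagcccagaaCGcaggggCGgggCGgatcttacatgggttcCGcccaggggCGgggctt
Rab17, GRCm38.p6 chr1:90967668-90967917, minus strand: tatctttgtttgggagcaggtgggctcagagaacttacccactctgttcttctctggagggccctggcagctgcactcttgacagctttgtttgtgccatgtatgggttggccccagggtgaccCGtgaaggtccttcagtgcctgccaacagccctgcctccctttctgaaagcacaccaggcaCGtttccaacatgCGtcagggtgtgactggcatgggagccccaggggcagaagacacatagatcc

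Rab27a had 14 such pairs, Rab8b 20 and Rab5c 18, against 6 in Rab3b and 3 in Rab17. The promoter set held 37 of the 41 tested Rab genes and 11 of the 17 below the filter. It lacked Rab2a, Rab18, Rab4a and Rab30 above the filter and Rab37, Rab38, Rab36, Rab44, Rab27b and Rab26 below it. Among the 37 tested Rab genes with a promoter the median was 20 CG pairs (range 5 to 42). Among the 11 below the filter it was 8 (3 to 27), and over 17492 protein-coding genes it was 11. The protein-coding genes were not split by the filter, so whether the contrast is particular to Rab genes was not tested. Taking the start with most CG pairs favours genes with several starts. These were Rab7, Rab13, Rab43, Rab27a, Rab3a, Rab23 and Rab34 above the filter and Rab15 below it. At least 10 CG pairs were present in 32 of the 37 tested and 4 of the 11 untested Rab genes, against 53.1% of protein-coding genes. The letters TATAAA, searched on both strands, occurred in 1 of the 37 tested and 3 of the 11 untested Rab genes, against 13.7% of protein-coding genes, and GGGCGG, also on both strands, in 29 and 7, against 45.8%. Spearman's rho between CG pairs and log2 level was 0.454 over the 48 genes, all measured in the same libraries. Rab15, with 27 CG pairs and a mean below 1 FPKM, and Rab32, with 5 pairs and a mean above 3, went against this order. These letter matches are descriptions of the windows and not of bound factors.

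**Figure D2:**
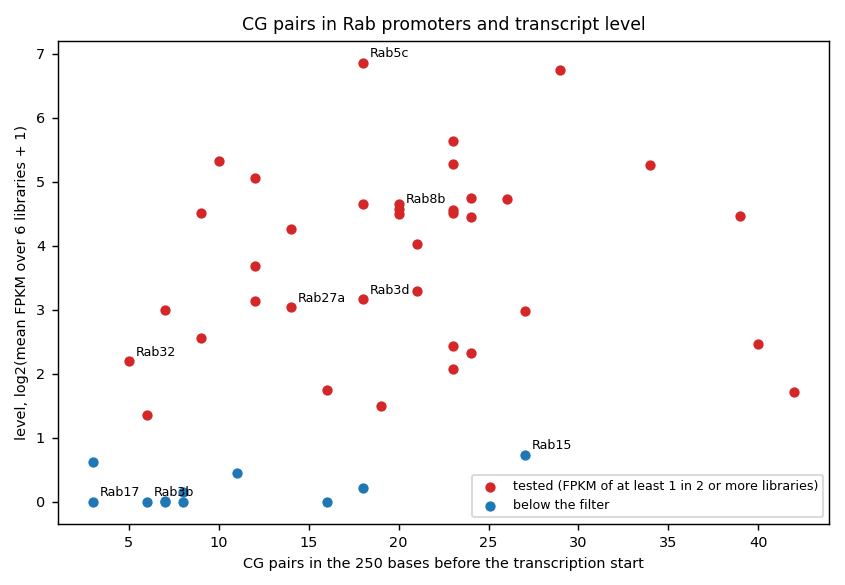
Number of CG pairs in the 250 bases before the start (x axis) against log2(mean FPKM over 6 libraries + 1) (y axis) for the 48 Rab genes in the promoter set used. Red points are the 37 tested genes with a median of 20 pairs, and blue points the 11 below the filter with a median of 8.

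The comparisons ask which genes accompany Selp and the loss of Ly6C, since the Ly6C-Selp+ subset was studied as the portal ECs through which progenitors enter the thymus. With all 6 libraries in the fit, without a replicate block and without rescaling, no Rab gene passed the test in any comparison. By limma on log2(FPKM + 1), with Benjamini-Hochberg adjustment over 11717 genes, 0 of the 41 tested Rab genes had an adjusted p under 0.05 between type III and type I ECs, against 4.14% of all tested genes (2.09% higher and 2.05% lower). With the replicate block the count was 2 (Rab8b and Rab27a), and after quantile normalization or median-ratio scaling it was 1 (Rab8b). After scaling to a common sum it stayed 0. Between type II and type I it was 0 of 41 against 0.393% (0.324% higher and 0.0683% lower), and between type III and type II 0 of 41 against 0.222% (0.0939% and 0.128%). At an unadjusted p under 0.05 the counts were 2, 0 and 0, against 14.1%, 7.48% and 9.99% of all genes. The lowest adjusted p of a Rab gene was 0.109, 0.679 and 0.642 in the 3 comparisons. Each pair of comparisons shares the libraries of 1 type, so they are not separate evidence.

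The median log2 difference of the 41 Rab genes was 0.14 between type III and type I, 0.01 between type II and type I and 0.15 between type III and type II, beside 0.08, -0.06 and 0.14 over all tested genes. Relative to all genes the Rab medians were therefore 0.06, 0.07 and 0.01. Scaling the libraries to a common median ratio moved the all-gene medians to 0.0026, -0.015 and 0.011, a shift of over 0.1 in the last comparison, so small differences of either sign depend on the scaling. The precision was limited by the 2 libraries per type. The median half-width of the 95% confidence intervals was 0.74 on the log2 scale, and the whole interval lay within 1 of zero, a change of less than 2-fold, for 16, 26 and 21 of the 41 genes. The other Rab genes may differ by more than that without passing the test.

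**Figure D3:**
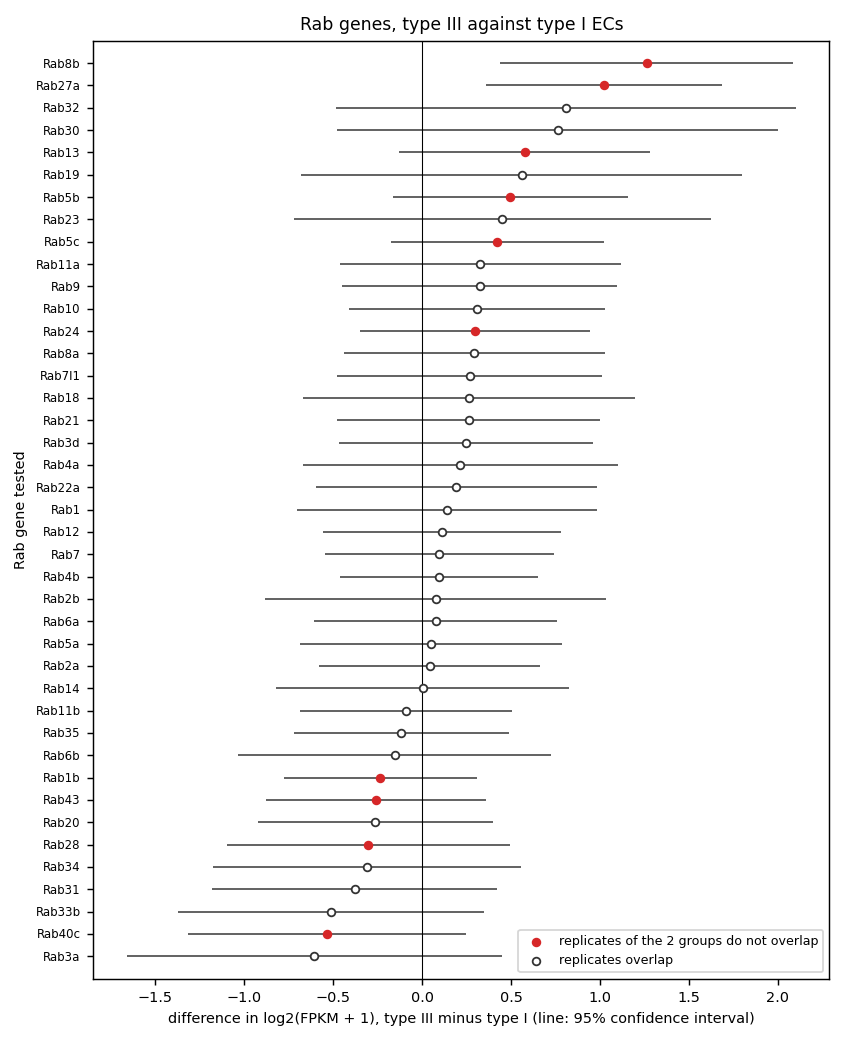
Difference in log2(FPKM + 1) between type III and type I ECs for the 41 tested Rab genes (x axis), with 95% confidence intervals as lines. Filled red points are genes whose replicates do not overlap between the types, 6 higher and 4 lower. The intervals of Rab8b and Rab27a alone exclude 0, before adjustment for multiple tests.

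Rab27a and Rab8b had the largest differences among the Rab genes. Rab27a (mm9 chr9:72892672-72945399, plus strand) docks secretory granules at the plasma membrane and is carried by mature Weibel-Palade bodies. It was at 5.06 and 3.78 FPKM in type I ECs, 7.13 and 7.28 in type II and 10.8 and 9.15 in type III, from 40 to 97 fragments per library. The 3 types did not overlap, and the means were 4.42 ± 0.907, 7.21 ± 0.102 and 9.96 ± 1.15 (SD, n = 2). The log2 difference between type III and type I was 1.02 (SE 0.294, 95% interval 0.36 to 1.69), or 0.94 relative to the all-gene median, and did not pass (limma adjusted p = 0.109; 0.0334 to 0.516 over the alternative settings). It was 0.96 in replicate 1 and 1.09 in replicate 2. With the replicate number as a block the adjusted p of Rab27a was 0.0334. Type II lay between the others, 0.61 above type I (adjusted p = 0.716) and 0.41 below type III (adjusted p = 0.723).

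Rab8b (mm9 chr9:66691471-66767512, minus strand) serves the delivery of vesicles from the Golgi and recycling compartments to the surface. It was at 17.8 and 8.86 FPKM in type I ECs, 22.8 and 22.9 in type II and 40.4 and 24.8 in type III, from 158 to 430 fragments per library. The types did not overlap here either, though the type III replicates lay far apart. The log2 difference between type III and type I was 1.26 (SE 0.363, 95% interval 0.44 to 2.08), 1.18 relative to the all-gene median, with an adjusted p of 0.109 by limma and a range of 0.0178 to 0.618 over the alternatives. Rab8b passed after quantile normalization (limma adjusted p = 0.0392), after median-ratio scaling (0.0346) and with the replicate block (0.0178). It did not pass after scaling the libraries to a common sum. Its difference was 0.79 to 1.73 when each library was left out in turn. The difference was 0.81 between type II and type I (adjusted p = 0.679) and 0.45 between type III and type II (adjusted p = 0.757). The ratio of Rab8b to its paralogue Rab8a, which does not depend on the scaling of a library, was 0.724 and 0.472 in type I, 0.843 and 1.15 in type II and 1.16 and 1.22 in type III. The ratios of type III and type I did not overlap. The two-sided exact permutation p was 0.333, the smallest that 2 against 2 libraries can give. Since Rab8b was picked for its large difference, this ratio is a description and not separate evidence. The ratio of Rab3d to Rab3a was also higher in type III than in type I without overlap. Those of Rab11a to Rab11b, Rab1b to Rab1, Rab4b to Rab4a, Rab6a to Rab6b and Rab2a to Rab2b overlapped. The Rab5 ratios are given below. Rab8a itself was at 24.6 and 18.8, 27.0 and 19.9, and 34.8 and 20.3 FPKM, and its values overlapped.

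**Figure D4:**
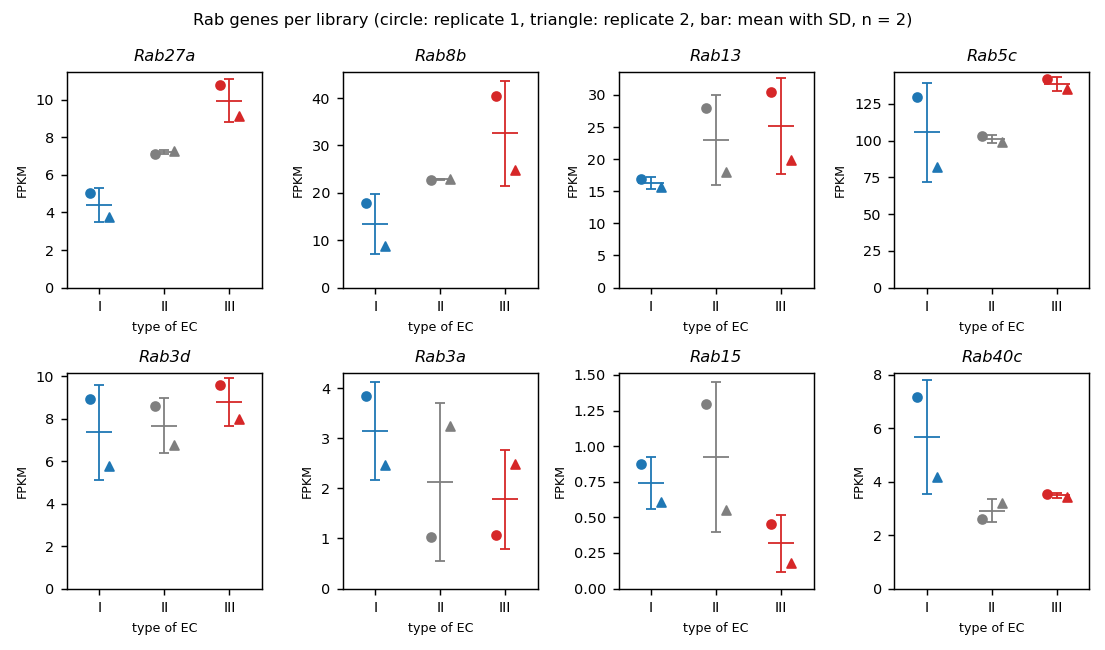
FPKM of 8 Rab genes in each library (y axis) by EC type (x axis), with circles for replicate 1, triangles for replicate 2 and bars for the mean with SD (n = 2). Rab27a and Rab8b do not overlap between any of the types, with type III highest. Rab3d, Rab3a and Rab15 show overlapping or low values.

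Of the other granule GTPases, Rab3d was the most abundant. Rab3d, which is found on secretory granules including Weibel-Palade bodies, was at 8.94 and 5.78 FPKM in type I, 8.59 and 6.74 in type II and 9.58 and 7.97 in type III. The types overlapped, with a log2 difference of 0.25 (95% interval -0.47 to 0.96) between type III and type I, which came to -0.03 without type I replicate 2. Rab3a, the synaptic vesicle form, was at 3.84 and 2.46, 1.02 and 3.24, and 1.08 and 2.48 FPKM from 2 to 13 fragments, and its log2 difference between type III and type I was -0.61 (-1.66 to 0.45). That of Rab3a was -0.98 to -0.23 when each library was left out in turn, -1.22 within replicate 1 and 0.0087 within replicate 2. An exon of Rab3a overlaps Mpv17l2 on the opposite strand, and since the kit does not keep strand, reads of the pair cannot be told apart there. Rab15, known from early and recycling endosomes and from Weibel-Palade body release, did not pass the filter and was at 0.871 and 0.611, 1.29 and 0.551, and 0.457 and 0.177 FPKM, from 2 to 9 fragments. Both type III values of Rab15 lay below the other 4, at counts too low to be tested.

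Rab27b, the close relative of Rab27a, was above 0 in 1 library only, type III replicate 2, at 0.271 FPKM from 5 fragments. Rab3c was above 0 only in type I replicate 2, at 0.0307 FPKM, and Rab3b in none. Rab37, a secretory granule form, was at 0.270 to 0.800 FPKM, and Rab44, also of granules, reached 0.265. The class of granule GTPases was thus carried by Rab3d and Rab27a. The 10 granule members together made up 1.92% and 2.00% of summed Rab FPKM in type I, 2.1% and 2.44% in type II and 2.27% and 2.44% in type III. Such shares did not overlap between type III and type I for 4 of the 7 role classes, 2 higher and 2 lower in type III, and with 2 against 2 libraries an exact permutation p cannot go below 0.33.

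In the class of transport to the surface, Rab13 followed Rab8b. Rab13, which works at cell junctions, was at 16.9 and 15.6 FPKM in type I, 27.9 and 18.01 in type II and 30.5 and 19.9 in type III. The values of type II and type III lay above those of type I, with log2 differences of 0.44 (95% interval -0.26 to 1.15) and 0.58 (-0.13 to 1.28). Rab40c, whose protein carries a SOCS box, went the other way at 7.17 and 4.17, 2.60 and 3.21, and 3.54 and 3.43 FPKM. It was lower in type II (log2 difference -0.74, -1.52 to 0.04) and type III (-0.54, -1.32 to 0.25) without overlap, and an exon overlaps Gm16278 on the other strand. Rab35, of endosome recycling, was at 24.04 and 23.0, 20.8 and 14.9, and 23.2 and 20.2 FPKM, lower in type II than in type I by 0.39 on the log2 scale. Rab10, Rab12 and Rab14 overlapped in all 3 comparisons.

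Among early endosome GTPases, Rab5 paralogues were at high levels. Rab5b was at 18.8 and 11.6, 18.5 and 17.4, and 22.4 and 20.2 FPKM, with type III above type I by 0.50 (95% interval -0.16 to 1.16). For Rab5c the log2 difference was 0.42 (-0.18 to 1.02) in that comparison and 0.45 (-0.15 to 1.05) between type III and type II. The ratio of Rab5c to Rab5a was 4.81 and 5.11 in type I, 4.24 and 5.21 in type II and 5.46 and 7.55 in type III, where type III lay above both other types. The ratio of Rab5c to Rab5b was 6.89 and 7.08, 5.58 and 5.72, and 6.32 and 6.71, where type III lay below type I, and for both ratios the exact permutation p between these types was 0.333. Rab24, counted in this class though its place at the early endosome was not tested, was at 5.94 and 5.68, 7.10 and 7.77, and 6.71 and 8.08 FPKM. Both other types lay above type I for Rab24. Rab20 had a single high library, 47.4 FPKM in type I replicate 1, against 27.6 to 30.3 in the other 5, and Rab31 was at 10.6 and 6.54, 11.0 and 6.40, and 5.71 and 6.71. Without type I replicate 1 the log2 difference of Rab20 between type III and type I went from -0.26 to 0.12. The 8 members of this class made up 28.7% and 27.5% of summed Rab FPKM in type I, 25.8% and 28.4% in type II and 29.0% and 30.0% in type III.

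The early secretory class showed little movement at its abundant members. Rab1b, of transport from endoplasmic reticulum to Golgi, was at 57.8 and 48.5 FPKM in type I, 44.4 and 51.1 in type II and 41.8 and 48.0 in type III. Type III lay below type I for Rab1b by 0.24 on the log2 scale (95% interval -0.78 to 0.31), and Rab43 was lower by 0.26. Rab6b was below type II in type III ECs (6.02 and 4.56 against 4.22 and 3.25 FPKM), as was Rab33b (4.11 and 5.10 against 3.95 and 2.69), which acts with Atg16L1 in autophagy. Rab30 and Rab19, of the Golgi, were at most 2.59 and 3.60 FPKM, and in each type replicate 1 of Rab30 lay above replicate 2 by over 4-fold. Together the 14 members of this class held 23.2% and 24% of summed Rab FPKM in type I. They held 22.9% and 22.1% in type II and 21.4% and 20.2% in type III, falling without overlap. Such a share weighs the abundant members most. Of the 11 tested members, 7 had a log2 difference above 0 between type III and type I. Their median was 0.075, beside 0.08 over all tested genes.

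In the late endosome and lysosome class Rab32, of lysosome-related organelles, was at 4.47 and 0.964, 3.64 and 1.89, and 7.71 and 2.79 FPKM. Replicates differed as much as types, and the log2 difference between type III and type I was 0.81 (95% interval -0.48 to 2.101). Rab7l1, also called Rab29, was at 5.50 and 4.14, 4.30 and 3.28, and 5.002 and 7.07 FPKM, with type III above type II by 0.55 (-0.20 to 1.29). Rab9, of return from late endosome to Golgi, was at 8.26 and 7.47 in type III and 6.45 and 6.70 in type II. Rab34 was at 1.15 to 2.94 FPKM. In the recycling class Rab11a was at 49.5 and 23.8, 43.3 and 31.0, and 44.1 and 42.6 FPKM, and Rab4a at 3.16 and 3.17, 3.15 and 2.00, and 5.55 and 2.56. The cilium members Rab28 and Rab23 were at 13.3 and 11.8, 17.4 and 8.26, and 10.6 and 9.38 FPKM, and at 2.78 and 0.743, 2.65 and 1.76, and 4.32 and 1.32. Rab25 was detected only in the type I libraries, at 0.372 and 0.298 FPKM from 1 fragment each. Rab39, of the early secretory class, was detected only in type III, at 0.643 and 0.280 FPKM from 4 and 3 fragments. Neither gene passed the filter.

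Between type III and type I ECs, 6 of the 41 Rab genes were higher without overlap of replicates (Rab8b, Rab27a, Rab13, Rab5b, Rab5c and Rab24) and 4 lower (Rab40c, Rab28, Rab43 and Rab1b), against 20.7% and 17.1% of all tested genes. Between type II and type I the counts were 4 (Rab8b, Rab27a, Rab13 and Rab24) and 4 (Rab40c, Rab35, Rab43 and Rab4a), against 13.0% and 20.6%. Between type III and type II, 9 were higher (Rab8b, Rab27a, Rab5b, Rab5c, Rab7l1, Rab21, Rab22a, Rab9 and Rab40c) and 2 lower (Rab6b and Rab33b), against 27.7% and 13.3%. Without rescaling, none of these 6 shares of the Rab genes stood above the background. In 25 of the 41 Rab genes (61.0%), replicate 1 was above replicate 2 in all 3 types, which held for 39.3% of all tested genes. The reverse was true of 0 Rab genes, but its share over all tested genes was not counted, so that 0 has no background beside it. The myeloid, T cell, thymic epithelial and lymphatic endothelial sums above were also higher in replicate 1 than in replicate 2 of each type. The sums of endothelial, pericyte, erythroid, platelet and mast cell markers were not so in all 3 types. Summed FPKM over all genes was higher in replicate 1 of each type too. It was 299303 and 221458 in type I, 261233 and 229036 in type II and 300932 and 272220 in type III. The part of admixed cells and of library scale in these values was not tested.

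The genes that load, switch off and carry Rab proteins were described next, from hand-written lists that were drawn up with results of these data known. Of 30 tested exchange factors 1 rose between type I and type III and none fell, with a list median of -0.03 beside 0.08 over all genes. That is 3.33% of the list, beside the 4.14% of all tested genes called in either direction, and the shares were 2.78% for the GTPase-activating proteins and 5.0% for the effectors, so none of these counts is a result about its list. It was Rab3il1, an exchange factor for Rab3 and Rab8 proteins, at 5.26 and 4.82 FPKM in type I, 11.9 and 13.97 in type II and 17.5 and 17.9 in type III. The log2 difference was 1.63 (SE 0.267, limma adjusted p = 0.00939, 0.0027 to 0.0735 over the alternatives). Without type I replicate 2, type III replicate 1 or type III replicate 2 the adjusted p of Rab3il1 was 0.0541, 0.0719 and 0.0735, with differences of 1.58 to 1.65. Of 36 GTPase-activating proteins 1 rose and none fell, with a list median of 0.16. Tbc1d8, which has a TBC domain, was at 7.74 and 3.85, 13.3 and 15.3, and 23.1 and 34.0 FPKM (log2 difference 2.16, adjusted p = 0.00918). Its adjusted p was 0.0535 without type I replicate 2 and 0.077 without type III replicate 2. None of the 8 tested delivery genes passed, and their median was -0.05. The highest were Gdi2, a dissociation inhibitor, at 53.9 and 27.7, 51.1 and 37.4, and 91.3 and 42.2 FPKM, and Rabggtb, a prenyl transferase subunit. The lowest were Rabac1, a prenylated Rab acceptor, at 157 and 111, 77.4 and 102, and 74.5 and 115 FPKM, and Chm, an escort protein at 1.42 to 5.67 FPKM.

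Of 40 tested Rab effectors 1 rose and 1 fell between type I and type III, with a list median of 0.16. Myrip, which ties Rab27a to myosin, was at 2.16 and 1.79 FPKM in type I, 7.73 and 8.95 in type II and 11.5 and 13.4 in type III. The 3 types did not overlap, and the log2 difference was 2.17 (SE 0.293, adjusted p = 0.00378, 0.00135 to 0.0386 over the alternatives). Between type II and type I it was 1.65 (adjusted p = 0.0619). Micall2, an effector of Rab13 and Rab8 at cell junctions, was at 4.46 and 6.73, 4.54 and 2.14, and 1.13 and 0.247 FPKM. It fell by 1.99 on the log2 scale (adjusted p = 0.0368), and it did not pass without any 1 of the 4 libraries compared (adjusted p 0.0589 to 0.236), without the filter on low values (0.123) or with a pseudocount of 0.1 (0.0512). Among the Rab27a effectors, Sytl4, Unc13d and Exph5 were named after their values were seen. Also chosen that way were Sytl1, Sytl2 and Rph3al of the effector list. These overlapped between type III and type I, with log2 differences of 0.13, 0.37 and -0.06. Sytl3 and Mlph of that list did not pass the filter. Sytl4 was at 1.41 and 0.613 FPKM in type I and 2.75 and 1.83 in type III (log2 difference 0.73, adjusted p = 0.52), Unc13d at 0.761 and 0.0677 against 2.60 and 1.24 (1.05, adjusted p = 0.324), and Exph5 at no more than 0.236.

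Of 8 tested genes of Weibel-Palade body cargo, 4 rose and 1 fell between type I and type III, with a median log2 difference of 1.46. That is 62.5% of the list, beside 4.14% of all tested genes called in either direction and an all-gene median of 0.08. This list too was written with results of these data known, so its share is a description. Without Selp, the gene the cells were sorted on, 3 of 7 rose and 1 fell, with a median of 1.38, and no test set these genes against the Rab genes. Von Willebrand factor (Vwf) was at 14.9 and 18.5 FPKM in type I, 163.5 and 259 in type II and 669 and 1095 in type III, and its log2 difference was 5.60 (SE 0.319, adjusted p = 3.79e-05). The log2 difference of Selp, which the gate fixes in sign, was 6.31. Edn1 (endothelin, 6.24 and 8.22 against 23.9 and 28.8 FPKM) rose by 1.74 and Angpt2 (angiopoietin, 13.0 and 9.49 against 35.9 and 32.6) by 1.54, with adjusted p of 0.00873 and 0.012. Angpt2 did not pass without type I replicate 2 (0.0647), type III replicate 1 (0.106) or type III replicate 2 (0.0716), and Edn1 not without type III replicate 2 (0.0789). Igfbp7, a secreted binding protein of insulin-like growth factors, fell from 3422 and 3403 FPKM to 850 and 1026, a log2 difference of -1.87 (adjusted p = 0.00255, and 0.0749 without the filter). The other 3 tested cargo genes did not pass: the log2 difference was 1.38 for Cd63 (adjusted p = 0.0679), -0.96 for the chemokine Ccl2 (0.559) and -0.41 for the plasminogen activator Plat (0.638). Between type II and type I, Selp and Vwf passed (log2 difference 5.61 and 3.55), 25.0% of the list beside 0.393% of all tested genes. The gate also separated these types by P-selectin, so Selp was fixed in sign there. Vwf was the only call in that share not set by the sort. Between type III and type II no cargo gene passed (Vwf 2.05, limma adjusted p = 0.0505), beside 0.222% of all tested genes. In that comparison 6 of 8 had an unadjusted p under 0.05 (75.0%), beside 9.99% of all tested genes.

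Of 32 tested genes of Weibel-Palade body formation and release, 1 rose between type I and type III (Myrip, also on the effector list) and 1 fell. The list median was 0.20. The calls were 6.25% of the list, beside 4.14% of all tested genes, so the count is not a result about the list. The one that fell was Rapgef4, an exchange factor for Rap proteins that responds to cyclic AMP, at 11.0 and 12.8 FPKM in type I, 6.22 and 4.86 in type II and 2.39 and 0.745 in type III. Its log2 difference was -2.40 (adjusted p = 0.00814), and the adjusted p was 0.0758 without type I replicate 2 and 0.0512 without type III replicate 2. Between type II and type I, and between type III and type II, 0 genes of the exchange factor, GTPase-activating, delivery, effector and release lists passed by limma, with 3, 2, 0, 2 and 2 and then 1, 3, 0, 3 and 3 at an unadjusted p under 0.05. Those were 0% to 10% of a list in the first comparison, beside 7.48% of all tested genes, and 0% to 9.38% in the second, beside 9.99%.

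**Figure D5:**
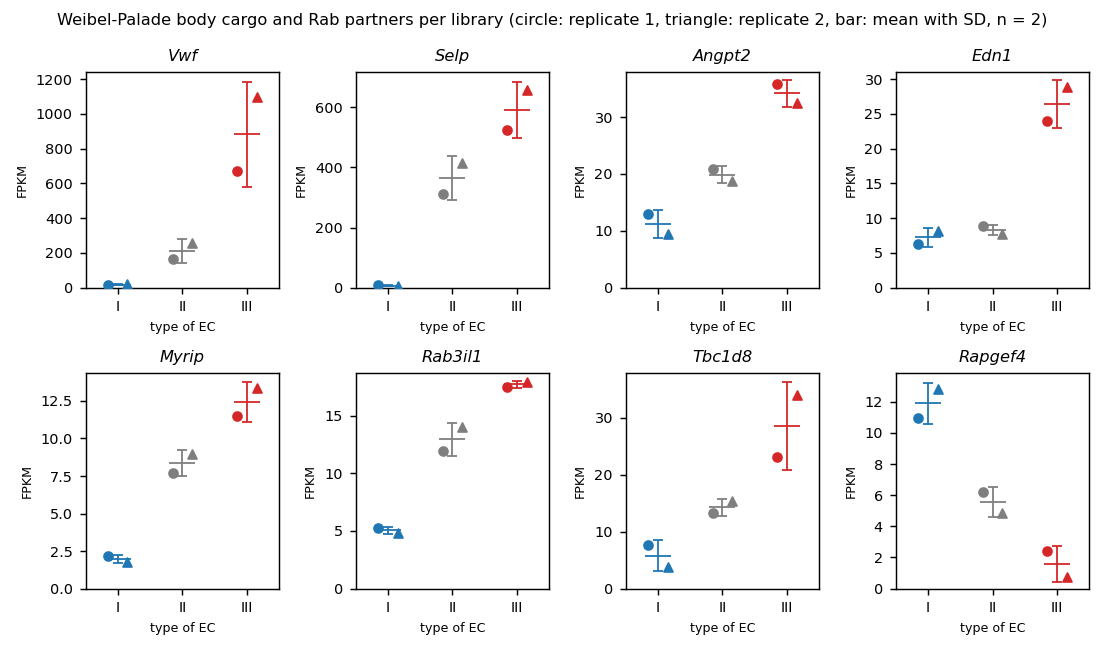
FPKM of 4 Weibel-Palade body cargo genes (Vwf, Selp, Angpt2, Edn1) and 4 partner genes (Myrip, Rab3il1, Tbc1d8, Rapgef4) in each library (y axis) by EC type (x axis), with circles for replicate 1, triangles for replicate 2 and bars for the mean with SD (n = 2). Myrip and Rab3il1 lie higher in type III than in type II and in type II than in type I, as Vwf does, and Rapgef4 lies lowest in type III.

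The Rab genes are related in sequence. No identical 100-base stretch was shared between the annotated coding transcripts of any pair of the 56 members found in GENCODE M1. Near matches, and sequences outside these transcripts, were not searched, so the placing of reads between related sequences was not tested. Exons of 11 members (Rab10, Rab11b, Rab20, Rab2b, Rab39b, Rab3a, Rab3b, Rab40c, Rab4b, Rab5a and Rab7) overlap another gene, whose reads cannot be told apart there.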

How the data were processed

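RNA of 6 libraries of sorted thymic ECs, 2 per type, was sequenced as 100-base paired reads from an unstranded kit. Per the labels and the submitters' processing notes, the authors used CASAVA 1.8, TopHat2 2.0.10 (mm9), Cufflinks 2.1.1 and Cuffdiff, and deposited FPKM per gene with 95% interval bounds for each library on its own. The gene annotation is not given in the sources used here. Cuffdiff needs reads and was not run.

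The 24457 genes with a chromosomal position were put on a log2(FPKM + 1) scale without rescaling. The 11717 genes with FPKM of at least 1 in at least 2 libraries were fitted with limma 3.58.1 in R 4.3.3 (trend, all 6 libraries, 1 mean per type). P-values were two-sided and adjusted by Benjamini-Hochberg over all genes tested (threshold 0.05). Fold changes are on this scale and understate those of low genes. An exact permutation of 2 against 2 cannot go below p = 0.33. The fragments behind a value were estimated from its interval bounds, taken to hold counting error alone, so the floor of 3 fragments covers counting error only. The script was tested on simulated data. Coordinates are mm9, and promoter sequences are RefSeq on GRCm38.p6.

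Members and lists were chosen with earlier results of these data known. Genes named were Rab27a, Rab27b, the Rab3 genes and Rab15, the 8 largest differences each way between type III and type I and 4 each way in the other comparisons, the 8 highest and those at 0; of the lists, genes past the threshold or else the 2 largest each way. Further genes were named after their values were seen, such as those whose groups did not overlap. Alternatives were pseudocounts, filters, scalings, no trend, a replicate block, only the libraries compared and leaving out each library; differences within a replicate number were added after seeing the data. Spike-in and reporter rows entered no test.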

Additional observations from a re-analysis of the deposited data

Results flagged for a closer look

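Rows for reporter sequences, which enter no comparison, held signal in some libraries with a lower interval bound above 0. The row named RGC-mRFP was at 18.2 FPKM in type I replicate 1, 23.7 in type II replicate 1, 5.31 in type II replicate 2, 28.3 in type III replicate 1 and 3.23 in type III replicate 2, and at 1.83 with a lower bound of 0 in type I replicate 2. It was higher in replicate 1 than in replicate 2 in each type. The row named RGC-GFP was at 2.37 FPKM in type III replicate 2.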

How the results depend on the processing

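With 2 libraries per type, the number of Rab genes past the threshold between type III and type I moved from 0 to 1 (Rab8b) after quantile normalization and after median-ratio scaling, and was 0 to 1 when each library was left out in turn; it stayed 0 in every setting run for the other comparisons. The cause of the moves was not tested. Under sum scaling the number for type III against type I stayed 0. With the replicate block it was 2 (Rab8b and Rab27a), and the block moved the counts over all genes from 485, 46 and 26 to 971, 183 and 229; the labels share only the numbers 1 and 2, and the deviations of same-numbered libraries correlated at 0.199, 0.306 and 0.180 over 11717 genes. Leaving out 1 library turned the sign of these log2 differences, whose lowest and highest values were -0.15 and 1.05 for Rab23, -0.64 and 0.12 for Rab20, -0.0294 and 0.52 for Rab3d, -0.0669 and 1.03 for Rabggtb and -0.91 and 0.37 for Chm (type III against type I), -1.02 and 0.0513 for Rab3a (type II against type I) and -0.74 and 0.24 for Rab28 (type III against type II). Of 52 named results, 45 kept their sign in the 16 planned settings. Over all genes, type III against type I gave 317 calls with no filter and 209 to 404 without 1 library. Type II against type I gave 102, 95 and 97 under quantile, median-ratio and sum scaling, 12 with no filter, 15 with no trend, 29 with only the libraries compared and 12 to 33 without 1 library; type III against type II gave 89, 84 and 109, then 0, 10, 7 and 2 to 14. The split of higher and lower calls went from 38 and 8 to 72 and 30, and from 11 and 15 to 21 and 68, under quantile normalization. At 3 fragments per library, values under about 0.391 to 0.674 FPKM are not resolved.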
